A study of Homo sapiens with 4 samples.

Results

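The SOX genes encode transcription factors that share a DNA-binding domain, the HMG box. The 10 SOX genes described here are SOX2, SOX4, SOX5, SOX6, SOX8, SOX9, SOX11, SOX12, SOX13 and SOX21, taken by name from the 31907 gene names counted in the study. RNA sequencing was performed on HGC-27, a human gastric cancer cell line, with 2 libraries of cells given PBS and 2 libraries of cells given 200 ng/ml recombinant IL-17B (rIL-17B), all collected after 48 h. The labels do not say whether the libraries of a group came from separate cultures, so the spread between them, and any p-value, may be technical. The comparison asked whether rIL-17B, a cytokine whose effect on stem-like properties the study examined, altered transcripts of these cells, here those of the SOX family.

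Values are given as CPM, the count of a gene divided by the total of its library and multiplied by 1000000. The totals lay between 12888029 and 17555879 counts, and the 3 counts taken as the smallest level that can be shown were between 0.171 and 0.233 CPM. This floor and all intervals cover counting error only, because PCR copies of a molecule were counted separately. The library labelled rIL-17B replicate 1 stood apart from the other 3, with a chi-square statistic of its counts against those of rIL-17B replicate 2 that came to 139 for each degree of freedom. The same statistic was 3.66 between the PBS libraries and 6.54 between PBS replicate 1 and rIL-17B replicate 2. Values below are therefore given mostly per library, and the calls among the 10 SOX genes also without rIL-17B replicate 1. Median log2 fold changes of the gene lists, and fold changes of other genes, rest on all 4 libraries only. Whether this library was made from the same cells as the other 3 was not tested, so its values are those of the library as labelled. Of 10 epithelial markers all had a count in at least 1 library. KRT8 had between 601 and 1457 CPM, and KRT18 and KRT7 were also plentiful, whereas KRT19 had 47 and 43 counts under PBS, 1 in rIL-17B replicate 1 and 58 in replicate 2. EPCAM had between 39 and 78 counts, CLDN4 between 97 and 108, and the adhesion gene CDH1 between 7 and 11. Of 8 gastric markers 7 had a count, with GATA6 between 23 and 241, MUC5AC between 0 and 19 and TFF1 at 0 in all libraries. KRT19, EPCAM, CLDN4, CDH1, MUC5AC and TFF1 are named from these lists after their values were seen.

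SOX proteins bend DNA at short motifs and act mainly with partner factors. SOX2 (subgroup SoxB1) holds embryonic and neural stem cells in an undifferentiated state and is used as a stemness marker in gastric cancer, while SOX21 (SoxB2) opposes SoxB1 proteins in neural progenitors. SOX4, SOX11 and SOX12 (SoxC) act in neuronal differentiation and organ growth, SOX5, SOX6 and SOX13 (SoxD) lack a transactivation domain of their own, and SOX8 and SOX9 (SoxE) act in cartilage, gonads, glia and gut stem cells.

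The start regions of 4 genes are shown because these genes mark both patterns found below. SOX2 and SOX21 were low or at 0 in rIL-17B replicate 1, whereas SOX12 and SOX13 stayed near the PBS level. The sequences are RefSeq windows on GRCh38.p14, from 250 to 2 bases before the start of SOX2 (chr3:181711675-181711923, plus strand), SOX12 (chr20:325302-325550, plus strand) and SOX13 (chr1:204072865-204073113, plus strand). For SOX21 the 170 bases between its start and that of SOX21-AS1 are shown (chr13:94712546-94712715, read on the minus strand), since the genes lie head to head. The last base before the SOX2 start was left out because GENCODE 29 places it in the exon. Capitals mark matches on either strand to ACAAAG or AACAAT (the SOX motifs), to the CCAAT box, to the GC box GGGCGG or to the octamer ATGCAAAT, and no matches overlapped.
SOX2: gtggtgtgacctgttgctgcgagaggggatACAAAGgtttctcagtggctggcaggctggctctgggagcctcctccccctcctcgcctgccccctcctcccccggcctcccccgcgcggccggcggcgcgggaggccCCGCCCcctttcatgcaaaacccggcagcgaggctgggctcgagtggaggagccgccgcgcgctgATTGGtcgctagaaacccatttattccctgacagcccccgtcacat
SOX21: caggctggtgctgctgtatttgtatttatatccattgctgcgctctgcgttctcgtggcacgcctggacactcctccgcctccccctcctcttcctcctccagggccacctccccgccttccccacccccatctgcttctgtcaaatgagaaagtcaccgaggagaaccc
SOX12: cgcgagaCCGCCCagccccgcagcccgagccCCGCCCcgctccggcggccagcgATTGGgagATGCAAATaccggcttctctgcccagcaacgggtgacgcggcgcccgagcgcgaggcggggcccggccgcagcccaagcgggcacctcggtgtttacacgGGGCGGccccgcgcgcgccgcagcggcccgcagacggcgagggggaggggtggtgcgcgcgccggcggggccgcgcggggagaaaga
SOX13: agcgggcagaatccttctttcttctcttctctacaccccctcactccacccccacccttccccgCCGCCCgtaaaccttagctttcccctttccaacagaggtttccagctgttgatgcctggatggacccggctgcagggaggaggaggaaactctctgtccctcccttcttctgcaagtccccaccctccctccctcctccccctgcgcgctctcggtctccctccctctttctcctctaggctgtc

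ACAAAG was found once in the SOX2 window and in none of the other 3, and 13.7% of all 35116 RefSeq windows of 249 bases held it. AACAAT was in none of the 4, against 8.96% of the windows. CCAAT was found once each for SOX2 and SOX12 (32.0% of windows), GGGCGG once for SOX2, 3 times for SOX12 and once for SOX13 (42.6%), and ATGCAAAT once for SOX12 (1.62%). The GC content was 68.7% for SOX2, 79.1% for SOX12 and 60.6% for SOX13, against a median of 58.2%. The SOX21 stretch held no match at 59.4% GC, the same as the median of all windows of 170 bases, of which 9.34% held ACAAAG, 5.97% AACAAT, 25.4% CCAAT, 38.3% GGGCGG and 1.09% ATGCAAAT. A match is a description of letters and not of binding. Of the 10 genes, 7 had a RefSeq window, and SOX8, SOX9 and SOX11 had none.

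To compare levels between genes, CPM was divided by the merged exon length in GENCODE 29, which gives CPM per kb. In the PBS libraries SOX2 was the most abundant SOX mRNA by this scale, with 30.0 CPM per kb in replicate 1 and 46.0 in replicate 2. SOX4 followed with 16.8 and 17.4 CPM per kb, then SOX9 with 11.4 and 15.9, and SOX12 with 10.4 and 12.5. SOX9 and SOX12 overlapped between libraries, so that their order is not set beyond the spread. SOX21 had 4.98 and 7.35 CPM per kb, SOX13 had 3.21 and 4.39, and SOX5 had 1.93 and 2.47. The lowest were SOX11 with 1.18 and 1.66, SOX8 with 0.880 and 1.09, and SOX6 with 0.407 and 0.435 CPM per kb. All neighbours in this order other than SOX9 and SOX12 had ranges that did not overlap between the PBS libraries. The merged length of SOX6 is 19636 bases over many alternative exons, which lowers its value on this scale.

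Across the 4 libraries the genes fell into 7 that were low in rIL-17B replicate 1 and 3 that were not. SOX2, SOX5, SOX6, SOX8, SOX9, SOX11 and SOX21 were at least 4-fold below both PBS libraries in rIL-17B replicate 1, and SOX4, SOX12 and SOX13 were not. Among all 16361 tested genes 13.7% were 4-fold lower in that library by the same measure, and 0.0306% were 4-fold higher. In rIL-17B replicate 2 none of the 10 was 4-fold lower, against 0.104% of all tested genes. The split ran through the subgroups, since SoxC and SoxD each had members on both sides.

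**Figure D1:**
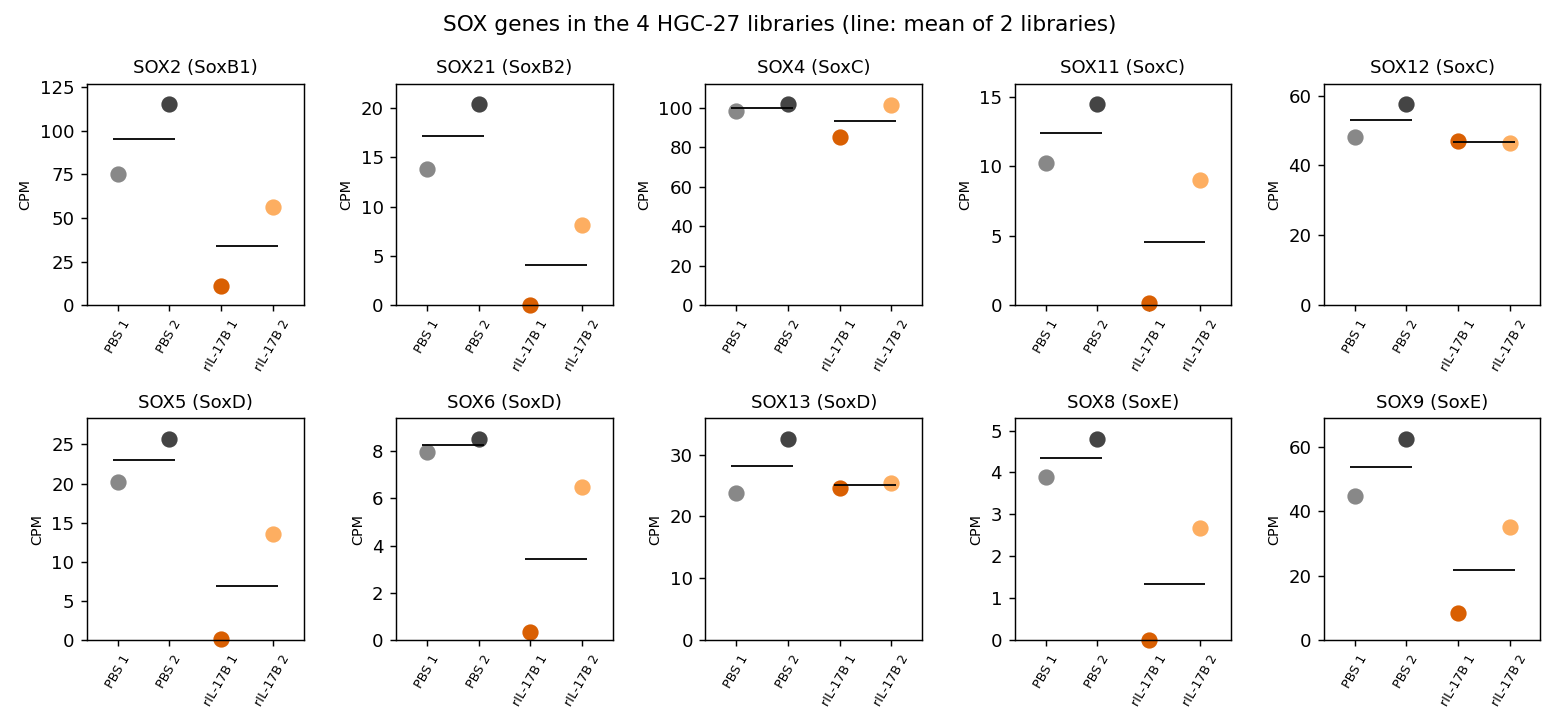
CPM (vertical axis, from 0) of each of the 10 SOX genes in the 4 libraries, 1 point per library, with PBS in grey and rIL-17B in orange and a line at the mean of each pair. SOX2 ran from 115.5 CPM in PBS replicate 2 down to 10.9 CPM in rIL-17B replicate 1, whereas SOX4 stayed between 85.1 and 102 CPM.

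SOX2 lies on chromosome 3 (181711924 to 181714436, plus strand, GENCODE 29 on GRCh38) as a single exon inside the span of SOX2-OT, a long noncoding RNA of the same strand, and shares no exon base with it. It had 1201 and 1489 counts under PBS, against 159 counts in rIL-17B replicate 1 and 993 in replicate 2. In CPM these were 75.5 and 115.5 under PBS, against 10.9 and 56.6 under rIL-17B. The mean was 95.5 ± 28.3 CPM (SD, n = 2) under PBS and 33.7 ± 32.3 CPM (SD, n = 2) under rIL-17B. Both treated libraries lay below both PBS libraries, but far apart from each other. The level in rIL-17B replicate 1 was 11.6% of the pooled PBS level (95% exact counting interval 9.86% to 13.7%), and that in replicate 2 was 60.5% (56.2% to 65.1%).

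SOX21, on chromosome 13 (94709622 to 94712399, minus strand), had 220 and 263 counts with PBS, 0 in rIL-17B replicate 1 and 142 in replicate 2. These counts correspond to 13.8 and 20.4 CPM with PBS and to 0 and 8.09 CPM with rIL-17B. Against the floor of 3 counts, SOX21 was at least 81.7-fold lower in rIL-17B replicate 1 than in the pooled PBS libraries. Replicate 2 held 48.2% of the PBS level (39.7% to 58.3%), which was the lowest share of the 10 genes in that library.

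In the SoxC subgroup, SOX4 (chromosome 6, 21592768 to 21598619) had 98.1 and 102 CPM under PBS, against 85.1 and 101.4 CPM under rIL-17B. Its groups overlapped, since rIL-17B replicate 2 lay between the PBS libraries. SOX12 (chromosome 20, 325595 to 330224) was at 48.1 and 57.7 CPM in PBS cells and, after rIL-17B, at 46.9 and 46.5 CPM. The SOX12 groups did not overlap, but the treated libraries lay closer to PBS replicate 1 than the PBS libraries lay to each other. SOX4 shares 168 exon bases with AL512380.2 (at most 1 count) and SOX11 shares 74 with AC108025.2 (at most 3), whereas SOX12 shares none with the overlapping NRSN2-AS1, which had between 33 and 68. SOX11 (chromosome 2, 5692667 to 5701385) had 163 and 187 counts with PBS, 2 in rIL-17B replicate 1 and 158 in replicate 2. The level of SOX11 in rIL-17B replicate 1 was 1.13% of PBS (0.136% to 4.10%), and in replicate 2 it was 74.0% (61.0% to 89.6%).

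In the SoxD subgroup, SOX5 (chromosome 12, 23529500 to 24562544) had 321 and 332 counts with PBS, 2 in rIL-17B replicate 1 and 238 in replicate 2. That was 0.603% of the PBS level in replicate 1 (0.0729% to 2.19%) and 59.8% in replicate 2 (51.3% to 69.4%). SOX6 (chromosome 11, 15966449 to 16739591) had 127 and 110 counts in the PBS libraries, compared to 5 and 114 counts in the treated ones, or 4.16% (1.34% to 9.84%) and 78.9% (62.5% to 99.0%) of the PBS level. SOX6 shares 219 exon bases, 1.12% of its exon length, with C11orf58 on the other strand. C11orf58 had 2242 and 1813 counts with PBS, 2255 in rIL-17B replicate 1 and 2549 in replicate 2. The low counts of SOX6 are uncertain, since the use of strand in counting is not stated, and the part of C11orf58 in them was not tested. SOX13 (chromosome 1, 204073115 to 204127743), the third SoxD gene, had 23.8 and 32.6 CPM under PBS, against 24.6 and 25.5 CPM under rIL-17B, and both treated libraries lay between the PBS libraries.

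In the SoxE subgroup, SOX9 (chromosome 17, 72121020 to 72126420), which marks stem and progenitor cells of gut epithelium and drives cartilage formation, was at 711 and 806 counts in PBS cells and, after rIL-17B, at 123 and 615 counts. In CPM these were 44.7 and 62.5 under PBS, against 8.42 and 35.0 under rIL-17B, again without overlap of the groups, and the means were 53.6 ± 12.6 and 21.7 ± 18.8 CPM (SD, n = 2 each). rIL-17B replicate 1 held 16.0% of the PBS level (13.2% to 19.2%) and replicate 2 held 66.5% (60.4% to 73.1%). SOX8 (chromosome 16, 981808 to 986979) had 62 counts in each PBS library, 0 in rIL-17B replicate 1 and 47 in replicate 2. It was at least 21.0-fold lower in replicate 1 against the floor of 3 counts, and at 62.2% of the PBS level in replicate 2 (43.5% to 87.6%). SOX2 and SOX9 were thus still well above the floor in rIL-17B replicate 1, while SOX5, SOX8, SOX11 and SOX21 had at most 2 counts.

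**Figure D2:**
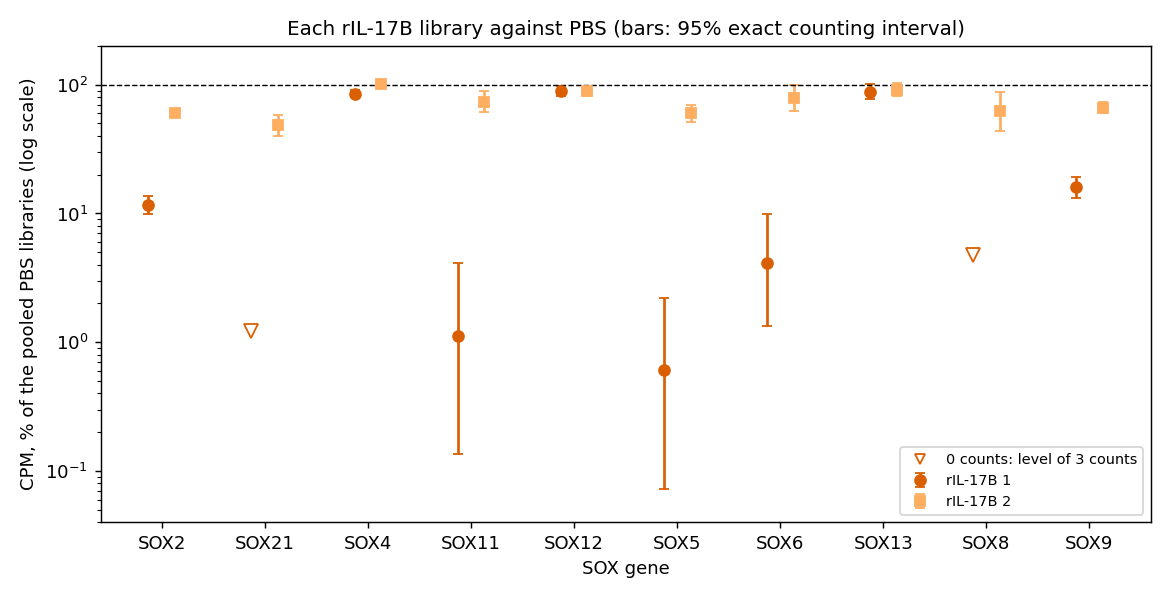
CPM of each SOX gene in each rIL-17B library as a percentage of the pooled PBS libraries (log axis), with 95% exact counting intervals and the dashed line at 100%. Open triangles mark SOX21 and SOX8, which had 0 counts in rIL-17B replicate 1, at the level that 3 counts would have there (1.22% and 4.77%). Replicate 2 lies between 48.2% and 101.5% for all 10 genes.

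The test of rIL-17B against PBS over all libraries called none of the 10 SOX genes. The quasi-likelihood test of edgeR, adjusted by Benjamini-Hochberg over the 16361 tested genes, gave 0 genes with an adjusted p under 0.05, which is 0.0% of the genes in each direction, and 0 of the 10 SOX genes had an unadjusted p under 0.05, against 1.38% of all tested genes. DESeq2 gave 0 calls and 0 unadjusted p under 0.05 among the 10 as well. All 10 passed the filter on low counts. The log2 fold change (rIL-17B minus PBS) was -1.52 (standard error 0.92, adjusted p = 0.661 from edgeR) for SOX2, -1.33 (0.81, 0.661) for SOX9 and -2.08 (2.06, 0.678) for SOX21. It was -1.75 (1.82, 0.684) for SOX5, -1.69 (1.81, 0.688) for SOX8, -1.44 (1.74, 0.710) for SOX11 and -1.28 (1.39, 0.692) for SOX6. For SOX4, SOX12 and SOX13 it was -0.17 (0.17, 0.681), -0.25 (0.14, 0.661) and -0.24 (0.21, 0.664). All 10 estimates were negative, with a median of -1.38 against -0.03 over all tested genes, of which 8608 were negative and 7753 positive.

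Without a test, 8 of the 10 genes (all but SOX4 and SOX13) had both rIL-17B libraries below both PBS libraries in CPM, and 0 had both above. Among all tested genes these shares were 27.5% and 31.5%. With TMM scaling the same count was 8, against 30.3% of all tested genes. With 2 libraries in each group the smallest two-sided p of an exact permutation test is 0.333, and none was run on single genes.

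The result depended on which treated library was used. Without rIL-17B replicate 1, the same edgeR fit called SOX2 (log2 fold change -0.75, standard error 0.10, adjusted p = 7.76e-11), SOX5 (-0.76, 0.16, adjusted p = 0.000185), SOX9 (-0.61, 0.11, adjusted p = 2.04e-05) and SOX21 (-1.07, 0.18, adjusted p = 2.00e-06), all lower with rIL-17B. Of all genes tested in that fit, 2.3% were called lower and 0.643% higher. Without rIL-17B replicate 2, all 10 SOX genes were called lower, against 31.9% of all genes called lower and 23.2% higher. Both fits compare 1 treated library with 2 PBS libraries and assume that the lone library varies as the PBS pair does, so that they compare libraries more than treatments.

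The PBS libraries also differed from each other in these genes. PBS replicate 2 was higher than PBS replicate 1 for all 10 SOX genes, whereas 54.6% of all tested genes were higher in replicate 2. The ratio of replicate 2 to replicate 1 was 1.53 for SOX2 (95% exact counting interval 1.42 to 1.65), 1.48 for SOX21 (1.23 to 1.77), 1.42 for SOX11 (1.14 to 1.76) and 1.40 for SOX9 (1.26 to 1.55). It was 1.04 for SOX4 (0.965 to 1.12) and 1.07 for SOX6 (0.820 to 1.39). The 7 genes that were low in rIL-17B replicate 1 all had the same order of libraries from high to low, PBS replicate 2, PBS replicate 1, rIL-17B replicate 2 and rIL-17B replicate 1. That order was found in 15.3% of all tested genes and in none of SOX4, SOX12 and SOX13. The 7 genes were set apart by their low level in rIL-17B replicate 1, and PBS replicate 2 was the higher PBS library for all 10. Only the place of rIL-17B replicate 2 in the order was thus open, and the 15.3% is over genes not chosen in this way.

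The place of each SOX gene among the 16361 tested genes was read from its log2 ratio to the PBS mean, with 0.5 CPM added. In rIL-17B replicate 2, 0.452% of the tested genes had a ratio as low as SOX21 or lower, 2.21% as low as SOX5, 2.30% as low as SOX2 and 4.06% as low as SOX9. In rIL-17B replicate 1 the shares were 1.41% for SOX21, 1.33% for SOX5, 5.62% for SOX2 and 7.30% for SOX9. For SOX8, SOX11 and SOX6 the shares were 5.01%, 2.49% and 4.66% in rIL-17B replicate 1, and 3.73%, 8.29% and 11.9% in replicate 2. For SOX12 and SOX13 they were 37.1% and 36.6% in replicate 1, and 22.8% and 28.5% in replicate 2. Of the 10 genes SOX21 and SOX5 were thus nearest the low end in both treated libraries, although replicate 2 lay much closer to PBS. SOX4 lay near the middle, with 34.4% of the tested genes at or below it in replicate 1 and 53.3% in replicate 2. These places are descriptions with no test.

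The make-up of SOX expression differed between the libraries. The summed level of the 10 genes was 346 and 444 CPM under PBS, 176 CPM in rIL-17B replicate 1 and 305 CPM in replicate 2. SOX4, SOX12 and SOX13 together had between 157 and 192 CPM in every library, while the other 7 together had 176 and 252 CPM in the PBS libraries, compared to 19.9 and 131 CPM in the treated ones. Per kb, SOX4, SOX12 and SOX13 made up 37.4% and 31.4% of the summed level with PBS, 81.1% in rIL-17B replicate 1 and 45.0% in replicate 2. These genes were grouped by their level in rIL-17B replicate 1. Their larger share in that library, and the fall of the other 7 there, therefore follow from the grouping. SOX2 was the largest part with PBS (37.0% and 42.1%) and in rIL-17B replicate 2 (32.9%). In rIL-17B replicate 1 SOX4 was the largest part (42.2%), followed by SOX12 (29.3%) and SOX2 (12.6%). In bulk samples fewer cells that express a gene and less RNA per cell cannot be told apart.

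**Figure D3:**
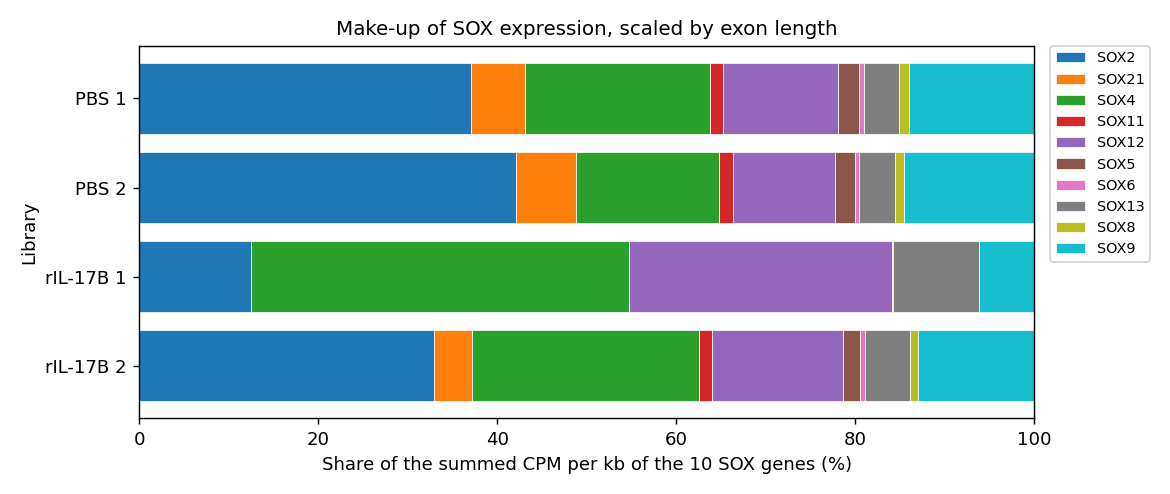
Share of the summed CPM per kb of the 10 SOX genes (horizontal axis, %) taken by each gene, 1 bar per library. SOX2 is the largest part of both PBS bars (37.0% and 42.1%), and in rIL-17B replicate 1 SOX4 (42.2%) and SOX12 (29.3%) are larger than SOX2 (12.6%).

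The other SOX genes were low. Of 9 further family members looked for, SOX10, SOX14 and SOX17 had no count in any library. SOX1, a SoxB1 gene like SOX2, had 23 and 33 counts under PBS, against 0 and 18 counts under rIL-17B, which is the order of libraries seen for SOX2. SOX7 had between 24 and 49 counts, SOX15 between 20 and 25 and SOX18 between 18 and 29, and none of these 3 was 4-fold lower in rIL-17B replicate 1. SOX3 had at most 5 counts and SOX30 at most 5. Of the 4 genes tested, 0 passed an adjusted p of 0.05 in edgeR, 0 had an unadjusted p under 0.05, and the median log2 fold change was -0.22.

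Of 13 noncoding RNA names listed for the SOX loci, 7 had counts and 4 were tested, with 0 called and 0 at an unadjusted p under 0.05 in edgeR. SOX2-OT was at 164 and 171 counts in PBS cells and, after rIL-17B, at 6 and 116 counts, a level of 3.53% and 56.8% of PBS in the treated libraries. SOX21-AS1, which starts 170 bases from SOX21 on the other strand in RefSeq, had 111 and 103 counts with PBS, 0 in rIL-17B replicate 1 and 62 in replicate 2. It was at least 36.2-fold lower in replicate 1 against the floor of 3 counts and held 47.5% of the PBS level in replicate 2, beside 48.2% for SOX21. SOX2 and SOX21 thus had the same direction in each treated library as the noncoding RNA of their locus.

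CASC15, a long noncoding RNA on chromosome 6 (21664772 to 22368328) near SOX4, had 30.4 and 27.2 CPM in the PBS libraries, compared to 53.2 and 34.3 CPM in the treated ones. Both treated libraries were above both PBS libraries (log2 fold change 0.52, standard error 0.22, adjusted p = 0.661 from edgeR). LINC00511, on chromosome 17 as SOX9 is, had 7.67 and 10.7 CPM under PBS, against 2.05 and 6.44 CPM under rIL-17B. SOX9-AS1, which spans SOX9 on the other strand and shares no exon base with it, had between 1 and 12 counts, SOX1-OT had at most 2 and LINC01152 at most 5.

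**Figure D4:**
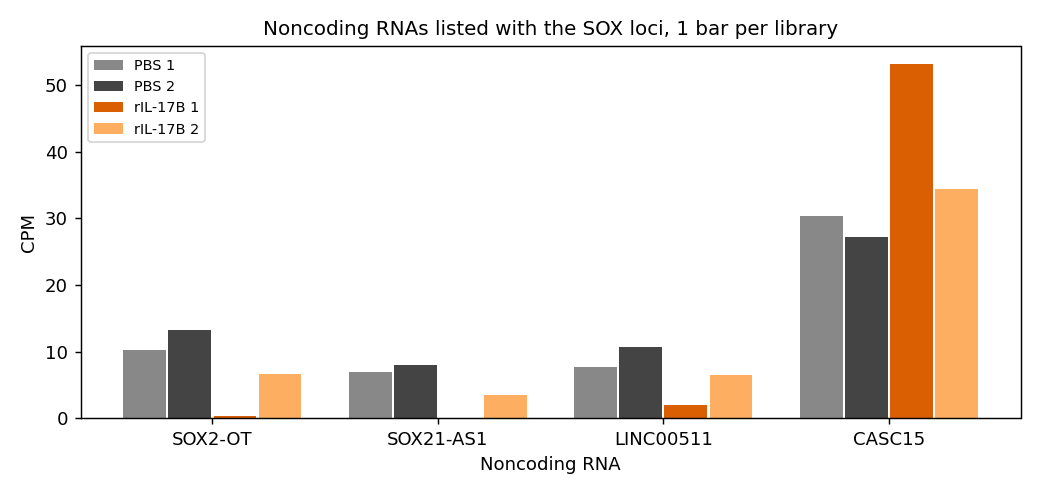
CPM (vertical axis, from 0) of 4 noncoding RNAs listed with the SOX loci, 1 bar per library. SOX2-OT was at 0.411 CPM and SOX21-AS1 at 0 in rIL-17B replicate 1, and CASC15 was highest in that library (53.2 CPM).

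Genes that act with or downstream of SOX factors were read from 5 lists. No gene of any list passed an adjusted p of 0.05 in edgeR. An unadjusted p under 0.05 was found for 1 gene (MAP2), and for 1.38% of all tested genes. That 1 gene is therefore not read as a result about the lists. Of 12 tested genes among 21 partners of SOX2 and progenitor genes, 5 were 4-fold lower in rIL-17B replicate 1 (13.7% of all tested genes), and the median log2 fold change was -0.49. NES, which encodes the neural progenitor filament nestin, was at 220 and 345 CPM in PBS cells and, after rIL-17B, at 16.1 and 162 CPM. MYC had 202 and 214 CPM in the PBS libraries, compared to 332 and 225 CPM in the treated ones. SALL4, a pluripotency factor, had 36.2 and 32.7 CPM under PBS, against 72.7 and 44.4 CPM under rIL-17B. NOTCH1 was at 57.4 and 67.1 CPM in PBS cells and, after rIL-17B, at 53.4 and 53.5 CPM, and CHD7, a chromatin partner of SOX2, had 51.8 and 62.9 against 86.3 and 59.0 CPM. NES thus had the direction of SOX2 in both treated libraries, and MYC and SALL4 had the other direction.

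The cartilage genes, many of them direct targets of SOX9 with SOX5 and SOX6, numbered 15, of which 11 were tested. Of these, 5 were 4-fold lower in rIL-17B replicate 1 (13.7% of all tested genes), with a median log2 fold change of -0.97. COL11A1, a minor fibrillar collagen, had 3719 and 2833 counts with PBS, 2 in rIL-17B replicate 1 and 3639 in replicate 2. Its level in replicate 2 was 91.1% of PBS, beside 66.5% for SOX9 and 59.8% for SOX5. COL9A3, a cartilage collagen, had 41.7 and 60.6 CPM in the PBS libraries, compared to 34.2 and 40.2 CPM in the treated ones. COL2A1, the main cartilage collagen, had between 2 and 9 counts and ACAN, the aggrecan gene, between 0 and 19, and both are named here after their values were seen. WWP2, a ubiquitin ligase that acts with SOX9, had 47.7 and 46.8 CPM under PBS, against 65.8 and 53.6 CPM under rIL-17B.

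The SoxC targets and neuronal genes numbered 13, of which 11 were tested. Of these, 3 were 4-fold lower in rIL-17B replicate 1 (13.7% of all tested genes), with a median log2 fold change of -0.63. MAP2, a neuronal microtubule protein, was at 57.3 and 77.2 CPM in PBS cells and, after rIL-17B, at 31.5 and 44.3 CPM (log2 fold change -0.88, standard error 0.29, unadjusted p = 0.0439 and adjusted p = 0.661 from edgeR). STMN1, a microtubule destabiliser, had 160 and 151 CPM in the PBS libraries, compared to 255 and 172 CPM in the treated ones, and EZH2, which is induced by SOX4, had 77.7 and 72.2 against 144 and 90.2 CPM. SEMA3C, a secreted semaphorin, had 173 and 170 CPM under PBS, against 90.5 and 158 CPM under rIL-17B. Of the 11 tested genes, 8 had both treated libraries below both PBS libraries (27.5% of all tested genes) and 2 had both above (31.5%). In rIL-17B replicates 1 and 2, SOX4 itself was at 85.2% and 101.5% of the PBS level. SOX11 was at 1.13% and 74.0% of it, and SOX12 at 89.5% and 88.7%.

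The SoxE targets in glia and neural crest numbered 19, of which 13 were tested. Of these, 5 were 4-fold lower in rIL-17B replicate 1 (13.7% of all tested genes), with a median log2 fold change of -0.83. OLIG1 and OLIG2, transcription factors of the oligodendrocyte lineage and the highest of the glial markers, had 736 and 916 and 634 and 869 counts with PBS. Both had 0 counts in rIL-17B replicate 1, and they had 486 and 515 counts in replicate 2, which is 48.2% and 56.2% of the PBS level. OLIG1 and OLIG2 had the order of libraries described for SOX2. Of the 7 tested glial and neural crest markers, 5 were 4-fold lower in rIL-17B replicate 1. The other direction was seen for 1 marker, MBP, with both treated libraries above both PBS libraries. MBP was at 161% of the PBS level in rIL-17B replicate 1 and 113% in replicate 2. PMP22, a myelin protein, was at 86.0 and 89.9 CPM in PBS cells and, after rIL-17B, at 121 and 97.9 CPM. TFAP2A, a neural crest factor, had 26.7 and 27.5 against 51.7 and 31.3 CPM, and MITF, the regulator of melanocytes, had 23.5 and 20.9 against 45.5 and 26.6 CPM.

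The coactivators and protein regulators of SOX factors were present in all libraries. All 18 were tested, and 0 were 4-fold lower in rIL-17B replicate 1 (13.7% of all tested genes). Of the estimates 14 were above 0 and 4 below, and the median log2 fold change was 0.19. CTNNB1, which encodes β-catenin, had between 348 and 384 CPM. KPNB1, an import receptor that carries SOX proteins into the nucleus, had 451 and 454 CPM in the PBS libraries, compared to 728 and 517 CPM in the treated ones. USP9X, a deubiquitinase, had 259 and 260 against 368 and 285 CPM, and CUL4A, a ubiquitin ligase scaffold, had 172 and 169 against 260 and 192 CPM.

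In rIL-17B replicate 1 the summed mesenchymal, glial, gastric and monocyte markers lay below both PBS libraries, and the summed epithelial markers lay above. Single markers did not all follow these sums. Both treated libraries lay above both PBS libraries for the monocyte marker CSF1R, and below both for the epithelial marker CLDN4. KRT19, also epithelial, was at least 4-fold lower in rIL-17B replicate 1. The part of the marker genes in the result was not tested. The summed level of 8 mesenchymal markers was 55621 and 54683 CPM under PBS, against 1146 and 46547 CPM under rIL-17B. Of the 8, 6 were 4-fold lower in rIL-17B replicate 1, against 13.7% of all tested genes. For 8 glial and neural crest markers it was 129 and 193 CPM under PBS, against 30.9 and 94.7 CPM under rIL-17B. PBS replicate 2 was thus above replicate 1 for the glial sum, as for the 10 SOX genes, and not for the mesenchymal sum. For 10 epithelial markers the sum was 996 and 990 CPM under PBS, against 2221 and 1247 CPM under rIL-17B. For 8 gastric markers it was between 4.04 and 20.6 CPM. FN1, the fibronectin gene, was at 0.453% of the PBS level in rIL-17B replicate 1 and 83.6% in replicate 2. The library protocol in the labels speaks of monocytes, and 8 monocyte markers summed to between 8.48 and 13.9 CPM, of which 5 were at 0 in rIL-17B replicate 1 and at most 1 in each other library.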

How the data were processed

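RNA was sequenced after Smart-seq2 amplification, which primes on poly(A). The authors deposited whole-number counts per gene name without normalization. The submitters' processing notes name hg38, Bowtie2 2.2.3, HISAT2 2.1.0, TopHat2 and HTSeq 0.6.0 with no roles. The annotation and use of strand are not given in the sources used here. Unlisted genes were taken as 0. Between 22 and 25 date-like names per library were left out, and 1 entry was kept of the 83 to 98 names listed more than once.

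The quasi-likelihood test of edgeR 4.0.16 (R 4.3.3) was run on the counts after filterByExpr and TMM scaling (factors 0.97 to 1.07) with a threshold of 0.05. It was also tried on simulated data that varied less between libraries than these, which does not show its power here. CPM used library totals without TMM. Alternatives were DESeq2 1.42.0, other scalings, no filter, a replicate block and leaving out each library. Genes were matched to GENCODE 29 (98.1% of names) and RefSeq. Members and lists were chosen with earlier results of these data known. Beside the 10 SOX genes, the text names family and locus genes with counts and genes overlapping a member. From each list of genes acting with or downstream of SOX factors it names the 3 of highest mean CPM and 2 of smallest p. The marker lists follow this rule only in part. OLIG2 and MBP are named from the glial marker list. No values are given for some markers that rank as high in their lists, such as COL1A1, GATA4 and CSF1R. The exact counting intervals are at 95% confidence.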

Additional observations from a re-analysis of the deposited data

How the results depend on the processing

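With DESeq2 size factors, upper-quartile scaling, library totals alone, no filter on low counts, DESeq2's Wald test and a replicate block, 0 genes were called in all and 0 of the 10 SOX genes. The counts of all genes at an unadjusted p under 0.05 were 197, 190, 161, 879, 457 and 173. The smallest adjusted p lay between 0.658 and 0.847. The median log2 fold change of the 10 SOX genes ran from -2.17 with the replicate block to -1.37 with library totals alone. The labels give same-numbered libraries only a shared number. The correlation of their deviations was 0.0815, which cannot tell whether they were paired, since rIL-17B replicate 1 stood apart.

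Leaving out 1 library moved the calls. The number of genes called in all ran from 0 to 9489, with 0 without either PBS library, 504 without rIL-17B replicate 1 and 9489 without rIL-17B replicate 2. The number of SOX genes called ran from 0 to 10, with 0 without either PBS library, 4 without rIL-17B replicate 1 and 10 without rIL-17B replicate 2. Their median log2 fold change ran from -3.98 without rIL-17B replicate 2 to -0.53 without rIL-17B replicate 1. SOX4 ran from -0.37 to 0.0156, the latter without rIL-17B replicate 1, where its direction reversed. The cause was not tested. In each fit that leaves a group with 1 library, that library is assumed to vary like the other group. Depth sets the lower limit for SOX5, SOX8, SOX11 and SOX21, which had 2 counts or fewer in rIL-17B replicate 1.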
